A study of Saccharomyces cerevisiae with 8 samples.

Results

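The hexose transporter genes described here are 10 members of the major sugar transporter family of the yeast Saccharomyces cerevisiae: HXT1 (YHR094C), HXT2 (YMR011W), HXT3 (YDR345C), HXT4 (YHR092C), HXT5 (YHR096C), HXT6 (YDR343C), HXT7 (YDR342C), HXT10 (YFL011W), HXT14 (YNL318C) and GAL2 (YLR081W). They were found by the systematic names that the scanner files give for the probes, and each had 1 probe, spotted 2 times per array, among 6256 probes for 6227 genes. The study asked, by its title, which genes bear on tolerance of yeast to isopropanol (2-propanol). Total RNA was taken from the diploid laboratory strain BY4743 after 3 h at 30 °C in 120 ml of rich YPD medium shaken at 130 rpm, and labelled RNA was hybridised to 1-colour arrays. The control group (n = 4 arrays) had no isopropanol and the isopropanol group (n = 4 arrays) had 40 g/l, with strain, medium and time otherwise the same. The free-text descriptions of the isopropanol samples say 40 mg/l, whereas their other labels give 40 g/l, the dose used here. Nothing in the labels says that the arrays came from separate cultures, so the p-values cover the spread among 8 arrays, part or all of which may be technical.

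Yeast takes up glucose by facilitated diffusion through the Hxt proteins, a family of plasma membrane carriers with different affinities. Low-affinity carriers such as Hxt1 and Hxt3 serve cells in plentiful glucose, whereas high-affinity carriers such as Hxt2, Hxt6 and Hxt7 serve cells in scarce glucose, and their genes are repressed when glucose is high. The glucose sensors Snf3 and Rgt2 lift the repression of HXT genes by Rgt1 through the loss of Mth1 and Std1, and the repressors Mig1 and Mig2 shut off high-affinity genes in high glucose.

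Levels are given as log2 of the processed signal relative to the 75th percentile of each array, so 0 is the signal of that percentile. That percentile was 1312 to 1678 intensity units on the control arrays and 1802 to 2449 on the isopropanol arrays, with 0 saturated spots. Slide 1 held the control group and slide 2 the isopropanol group, so an effect of the slide cannot be told apart from that of isopropanol in the results below. Of 8 spot readings per group for URA3 and LEU2, which BY4743 lacks, 0 and 1 were well above background in the control group and 0 and 0 in the isopropanol group. A gene entered the test if either group had its probe well above background on 4 of 4 arrays, which held for 5816 genes, and it passed at a limma adjusted p under 0.05 (Benjamini-Hochberg). Relative to spike-in RNAs the 75th percentile itself rose by 1.16 (log2), or by 0.75 without isopropanol replicate 1, whose spike-ins lay at -1.76 against -0.24 to 0.00 on the other isopropanol arrays. On the spike-in scale with all arrays, every change given below relative to the 75th percentile is therefore higher by 1.16. Differences between genes on the same array do not shift. Members' values on the spike-in scale are given where they were tested. The fit gave all tested members the same SE there, 0.44 with all arrays and 0.19 without isopropanol replicate 1. Spread of the spike-ins between arrays moves all genes of an array alike, whereas the fit treats it as separate for each gene. Calls on that scale are therefore not independent of each other, and their p-values may be too small.

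Of the 10 transporter genes, 9 were tested: HXT1, HXT2, HXT6 and HXT7 fell, HXT4, HXT5, HXT10 and HXT14 rose, HXT4 only narrowly, and HXT3 did not pass. GAL2 was too dim to test. Over all 5816 genes 29.7% fell and 48.1% rose, against 42.1% and 34.5% after centring arrays on their medians, 38.4% and 35.2% after quantile normalization, and 0.327% and 77.8% on the spike-in scale. HXT10 and HXT14 entered the test only through the isopropanol group and so had to lie higher there. They had fitted rises of at least 2-fold, as no other tested member did. Because the filter fixed that direction, the count is not comparable with the 7.5% of all genes that rose so far. Among the 7 members well above background on all arrays 4 fell and 2 rose, with a median log2 change of -0.87, where 30.2% of 5652 such genes fell and 47.2% rose, with a median of 0.10. The 4 that fell, HXT1, HXT2, HXT6 and HXT7, did so by over 1.5-fold, as did 7.32% of those 5652 genes. In 4 members the isopropanol arrays lay wholly below the control arrays, where 27.4% of all genes tested did so. In 4 tested members, HXT10 and HXT14 among them, they lay wholly above, where 45.9% of all genes tested did so.

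**Figure D1:**
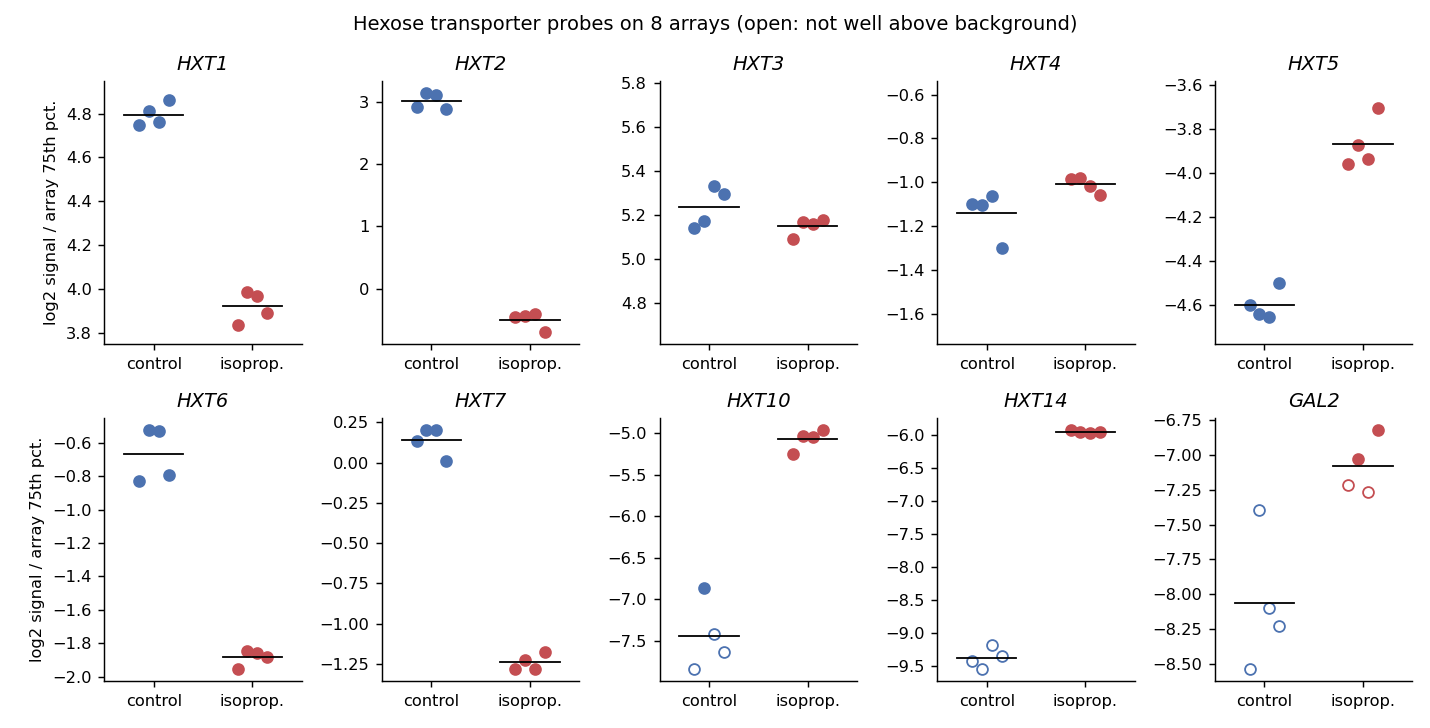
Log2 processed signal relative to the 75th percentile of the array (vertical axes, with a separate range for each gene) for the 10 transporter probes on 4 control (blue) and 4 isopropanol (red) arrays. Lines are group means, and open points were not well above background. The groups overlap in HXT3, touch in HXT4 and lie apart in the other panels, and control points of HXT14 and GAL2 are all open.

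The low-affinity carriers differed from each other. HXT1, which encodes the carrier induced by high glucose, stood at 4.75, 4.81, 4.76 and 4.86 on the control arrays and at 3.84, 3.99, 3.97 and 3.89 on the isopropanol arrays. All isopropanol values were below all control values. The fall was 1.83-fold (log2 -0.87, SE 0.047, limma adjusted p = 7.72e-08) and ranked 157th among 5816 genes ordered from the largest decrease. Before scaling, the HXT1 signals ran from 38110 to 45640 intensity units in the control group and from 26750 to 38840 in the isopropanol group, and so overlapped. The HXT1 change was -1.03 after median centring, -0.487 after quantile normalization and -0.576 with normexp background correction followed by quantile normalization. Each passed as lower, the last 2 by less than 1.5-fold. Set against the spike-ins its change was 0.29 (SE 0.44), or -0.093 (SE 0.19) with isopropanol replicate 1 left out, and neither passed.

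HXT3, whose carrier is made over a wide range of glucose levels, stood at 5.14, 5.17, 5.33 and 5.29 without isopropanol and at 5.09, 5.17, 5.16 and 5.18 with it. The groups overlapped, with isopropanol replicate 1 the lowest of the 8 and control replicate 3 the highest. The change was -0.086 (95% interval -0.20 to 0.028, limma adjusted p = 0.148). Its direction followed the scaling: -0.25 after median centring, 0.38 after quantile normalization, 0.41 with normexp background correction followed by quantile normalization, and 1.07 on the spike-in scale (0.69 when isopropanol replicate 1 was left out), each of which passed. No direction can therefore be given for HXT3.

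The genes of high-affinity uptake fell. HXT2, for a carrier that cells use in low glucose, stood at 2.91, 3.14, 3.11 and 2.87 on the control arrays. With isopropanol it stood at -0.45, -0.44, -0.40 and -0.70, far below every control value, with isopropanol replicate 4 apart from the others. The fall was 11.4-fold (log2 -3.51, SE 0.082, limma adjusted p = 3.12e-10) and was the second largest fitted decrease of the 5816 genes (rank 2). Its signal before scaling dropped from between 9621 and 14360 intensity units to between 1111 and 1806. On the spike-in scale its change was -2.35 (SE 0.44), or -2.77 (SE 0.19) with isopropanol replicate 1 left out, and with all arrays HXT2 was the 1 member to pass as lower there.

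HXT6 and HXT7 encode high-affinity carriers that are nearly identical, and their probes may share signal, so the pair cannot be taken as independent. The HXT7 probe read 0.13, 0.20, 0.20 and 0.01 in the control group and -1.28, -1.22, -1.28 and -1.18 in the isopropanol group. HXT6 read -0.83, -0.52, -0.53 and -0.79 without isopropanol and -1.95, -1.84, -1.86 and -1.88 with it. On both probes the groups did not overlap, and on both control replicates 1 and 4 lay below control replicates 2 and 3. HXT7 fell 2.60-fold (log2 -1.38, SE 0.052, limma adjusted p = 5.99e-09) and HXT6 fell 2.32-fold (-1.21, SE 0.075, limma adjusted p = 1.84e-07), ranks 44 and 63 from the largest decrease. The 95% intervals, -1.49 to -1.26 for HXT7 and -1.38 to -1.05 for HXT6, overlapped. On the spike-in scale neither passed (-0.22 and -0.055, SE 0.44). Both passed as lower once isopropanol replicate 1 was left out, at -0.61 for HXT7 and -0.44 for HXT6 (SE 0.19). That SE is the one shared by all tested members, so these 2 calls are weak. Of the 10 members, HXT2, HXT6 and HXT7 fell at least 2-fold, which 1.98% of all genes did. In RNA from whole cultures, a lower level in all cells and a loss from a share of the cells cannot be told apart.

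HXT4, also repressed by high glucose and of intermediate to high affinity, did not fall with these genes. It read -1.10, -1.11, -1.06 and -1.30 in the control group and -0.98, -0.98, -1.02 and -1.06 in the isopropanol group. The groups met at -1.06, where the highest control array and the lowest isopropanol array were equal to 2 decimals, and control replicate 4 was the lowest of the 8. The rise of 1.10-fold (log2 0.13, SE 0.055) passed narrowly (limma adjusted p = 0.0486). The call was lost without control replicate 1, 2 or 4 (limma adjusted p = 0.0563, 0.0601 and 0.108) and without isopropanol replicate 1, 2 or 3 (limma adjusted p = 0.101, 0.101 and 0.083). The change was -0.027 after median centring, -0.027 with normexp and 0.0025 after quantile normalization, none of which passed. On the spike-in scale it was 1.29, or 0.88 when isopropanol replicate 1 was left out, and passed as higher in both, so HXT4 has no settled direction.

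HXT5 encodes a carrier of intermediate affinity that is made in slowly growing, starved or stressed cells. It read -4.60, -4.64, -4.66 and -4.50 without isopropanol and -3.96, -3.87, -3.93 and -3.70 with it. Every isopropanol array lay above every control array, and all spots were well above background. The rise was 1.66-fold (log2 0.73, SE 0.062, limma adjusted p = 1.81e-06). With normexp it shrank to 0.11 and did not pass (limma adjusted p = 0.0655), and after quantile normalization it was 0.19 and passed, while on the spike-in scale it was 1.89. HXT5 is dim, with 57.9 to 69.0 intensity units in the control group and 138 to 167 in the isopropanol group.

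The remaining members lay near background without isopropanol. HXT10, a seldom expressed family member, read 7.32, 14.0, 9.65 and 6.59 intensity units on the control arrays and 63.3, 74.7, 72.1 and 57.9 on the isopropanol arrays. Its probe was well above background on 1 control array, replicate 2, and on all 4 isopropanol arrays. When the 3 unmeasured control values were raised to the dimmest signal measured on their arrays, HXT10 was at least 3.69-fold higher (log2 1.88). That bound applies to the 75th-percentile scale only. The fit gave a change of 2.37 (log2, SE 0.17, limma adjusted p = 6.88e-07), which is no estimate of size because 3 of 4 control values are unmeasured. The fitted change was 1.79 after quantile normalization, 0.41 with normexp and 3.53 on the spike-in scale, and passed in each.

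HXT14, another member that is seldom expressed, read 2.44, 2.18, 2.88 and 2.01 intensity units in the control group, where 0 of 8 spot readings were well above background. In the isopropanol group it read 39.6, 39.3, 38.1 and 28.95, with 8 of 8 readings well above background. Its 4 isopropanol values agreed closely after scaling, at -5.95 ± 0.02 (log2, SD, n = 4). When its control values were raised to the dimmest signal measured on each control array, HXT14 was 2.21-fold higher (log2 1.15). This is a lower bound only if the unmeasured control values lay no higher than that signal. As for HXT10, it applies to the percentile scale only, and the change with normexp, 0.45, was smaller. Its limma adjusted p of 1.58e-10 belongs to the fitted change of 3.42, which is no estimate of size because the control values are unmeasured. The fitted change was 0.45 with normexp and 4.58 on the spike-in scale, and passed in both.

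GAL2 encodes the galactose permease, which also carries glucose and is induced by galactose. It read 4.51, 9.65, 6.05 and 4.38 intensity units without isopropanol and 16.2, 18.8, 15.5 and 16.0 with it. None of the 4 control arrays and 2 of the 4 isopropanol arrays, replicates 2 and 4, were well above background (5 of 8 spot readings), so it was not tested. The isopropanol values lay above the control values, but the bound was only 1.01-fold. A fit without the filter on dim probes gave a difference of 0.98 (limma adjusted p = 0.00344), which rests on unmeasured values and says nothing of its size.

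**Figure D2:**
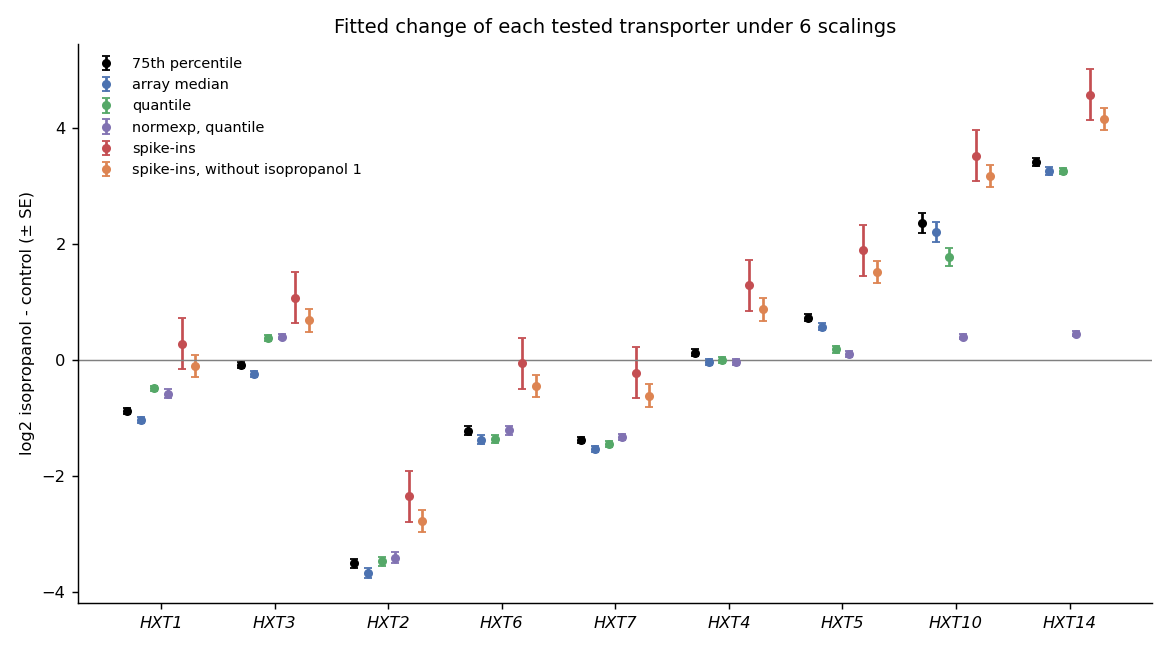
Fitted log2 change, isopropanol minus control, with its SE (vertical axis) for the 9 tested transporters under 6 scalings of the arrays (colours). HXT2, HXT6 and HXT7 lie below 0 under all 6, though HXT6 and HXT7 by less than their SE on the spike-in scale with all arrays. HXT5, HXT10 and HXT14 lie above 0 under all 6, and HXT1, HXT3 and HXT4 lie on both sides of 0.

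A difference between transporters on the same array does not depend on a common scaling factor. It was compared for 3 pairs, picked with earlier results of these data known. HXT2 minus HXT1 moved by -2.63, from -1.79 ± 0.16 to -4.42 ± 0.13 (log2, SD, n = 4; exact permutation test, two-sided, p = 0.0286, the smallest that 4 against 4 arrays allow, and 0.0286 after adjustment over the 3 pairs). HXT2 thus fell more than HXT1, the low-affinity carrier gene that also fell, on 4 of 4 isopropanol arrays against 4 of 4 control arrays. HXT2 minus HXT3 moved by -3.42, from -2.22 ± 0.16 to -5.64 ± 0.16 (SD, n = 4; exact permutation p = 0.0286). HXT4 minus HXT3 moved by 0.22, from -6.37 ± 0.16 to -6.16 ± 0.07 (SD, n = 4; exact permutation p = 0.0286), but by -0.38 after quantile normalization and by -0.43 with normexp, so the relative change of that pair has no settled direction.

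**Figure D3:**
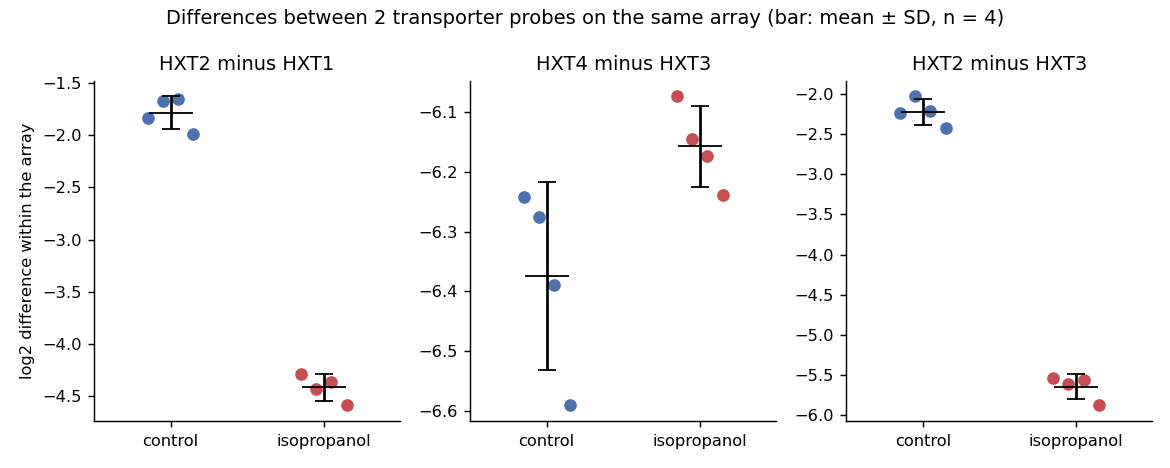
Log2 difference between 2 transporter probes on the same array (vertical axes, a separate range for each pair) for control (blue) and isopropanol (red) arrays, with the mean and SD (n = 4). For both pairs with HXT2 the groups lie over 2 log2 units apart, whereas those of HXT4 minus HXT3 lie within 0.22 of each other on average.

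Several members lie side by side in the genome, and neighbours did not move together throughout. In the gene order of the RefSeq table (assembly R64, used only for order since the array's annotation is older), HXT4, HXT1 and HXT5 follow each other on chromosome VIII with AHT1, not tested here, between HXT4 and HXT1. Along that row the log2 changes were 0.13, -0.87 and 0.73, so HXT1 fell between its neighbours HXT4 and HXT5. The flanking genes were MSR1, for a mitochondrial arginyl-tRNA synthetase, at 0.67 (SE 0.039) and PAL2 at 0.42 (SE 0.068). On chromosome IV, HXT7, HXT6 and HXT3 lie in a row, with YDR344C, not tested here, before HXT3. There HXT7 and HXT6 fell, HXT3 did not pass, and the flanking YDR341C fell by 0.33 (SE 0.041), and SVF1, at -0.043 (SE 0.060), did not pass.

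**Figure D4:**
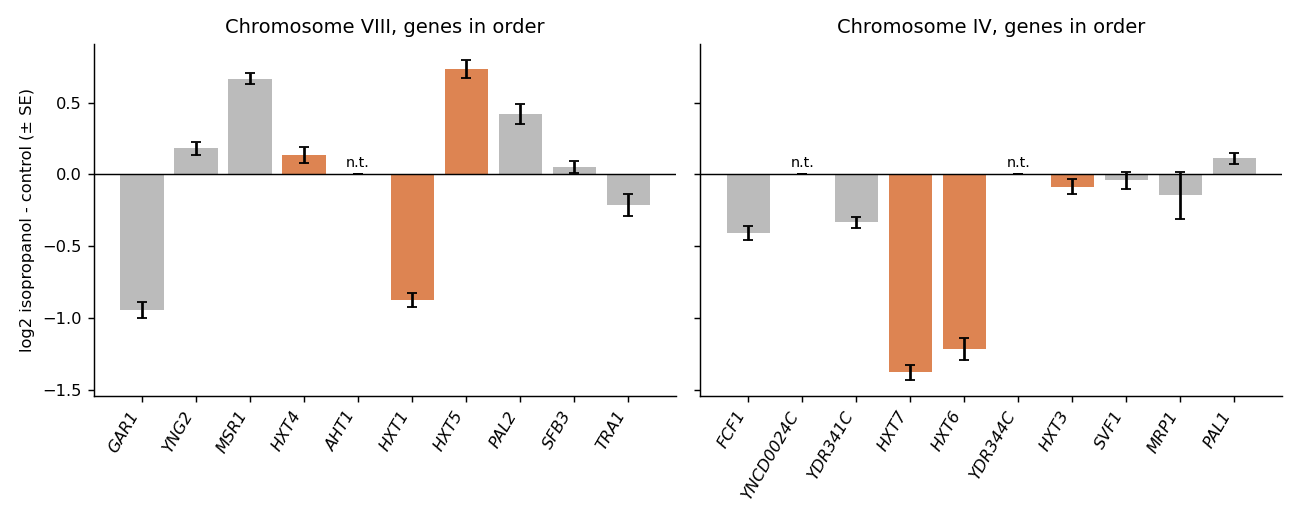
Fitted log2 change, isopropanol minus control, with SE (bars from 0) for genes in their order along chromosomes VIII and IV around the HXT clusters. Transporter genes are orange, other genes grey, and n.t. marks genes not tested here. HXT1 is lower while its neighbour HXT5 is higher, and HXT7 and HXT6 are the lowest bars of chromosome IV.

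The genes whose 8-array pattern was nearest to that of a member were found among 5067 named genes measured on all arrays, by the Euclidean distance between gene-centred log2 values. For HXT2 they were HPF1, for a cell wall mannoprotein, at a distance of 0.56, its relative CSS1, whose probe may share signal with it, at 0.59 and ALD6, the cytosolic acetaldehyde dehydrogenase gene, at 0.97. HPF1 fell by 3.26 and CSS1 by 3.18 (log2). HXT6 was nearest to PHO89, for a sodium-phosphate cotransporter, at 0.20, then to DSE2, for a daughter-cell wall protein, and to RRP1, for ribosomal RNA processing, both at 0.25. HXT7 was nearest to the chitinase gene CTS1 at 0.22, then to PET9, for the mitochondrial ADP/ATP carrier, at 0.23 and to the histone H3 gene HHT1 at 0.25. With 2 groups such nearness mostly reflects a like difference between the groups.

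Of 9 other transporter-family genes, 4 were tested, 3 rose, none fell and RGT2 did not pass, with a median log2 change of 0.60 (0.11 over all genes tested, of which 48.1% rose and 29.7% fell). HXT9 rose 1.63-fold (log2 0.70, SE 0.053, limma adjusted p = 8.06e-07), and its probe may share signal with its near-identical relative HXT11, which was below that level on 4 of 4 control arrays. HXT17 rose 1.84-fold (0.88, SE 0.099), but with normexp its change was 0.084 and did not pass. The sensor gene SNF3 rose by 0.51 (SE 0.050), from -1.37 ± 0.044 to -0.86 ± 0.086 (SD, n = 4). The low-affinity sensor gene RGT2 was at 0.15 (SE 0.064, limma adjusted p = 0.0578), and passed as higher without isopropanol replicate 2 (0.20, limma adjusted p = 0.0117). After quantile normalization and with normexp RGT2 was lower and passed (-0.27 and -0.17). HXT8, HXT11, HXT13, HXT15 and HXT16 were not well above background on all arrays of either group. Without isopropanol replicate 3, HXT8 and HXT16 met the filter and passed as higher, which gave 5 in the list.

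Of 17 genes that carry the glucose signal to the HXT promoters, 7 rose, 6 fell and 4 did not pass, with a median of 0.025. These shares are near those of all genes tested, 48.1% and 29.7%. MTH1, for a co-repressor that works with Rgt1 at HXT genes, rose 3.11-fold, from -4.56 ± 0.059 to -2.92 ± 0.14 (log2, SD, n = 4; limma adjusted p = 1.16e-08). SKS1, for a protein kinase linked to growth on low glucose, rose 5.23-fold, from -0.33 ± 0.041 to 2.06 ± 0.10 (limma adjusted p = 2.89e-10). Of the glucose repressor genes, MIG1 rose 1.66-fold (log2 0.73, SE 0.075) and MIG2 fell 1.60-fold (-0.68, SE 0.049). MTH1, SKS1 and MIG1 rose under all 6 scalings, whereas MIG2 was at 0.48 against the spike-ins, or 0.065 with isopropanol replicate 1 left out, and did not pass there. The other 13 genes changed by less than 1.5-fold. On the spike-in scale 12 of the 17 were higher and 0 lower, and after median centring 3 were higher and 9 lower.

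Of 8 genes of sucrose splitting (SUC2), hexose phosphorylation and the steps after it, 5 rose, 2 fell and PFK1 did not pass (median 0.26), beside 48.1% and 29.7% of all genes tested. HXK2, for the main hexokinase of cells in glucose, fell 1.70-fold, from 4.56 ± 0.013 to 3.80 ± 0.030 (log2, SD, n = 4; limma adjusted p = 2.55e-08). It did not pass on the spike-in scale (0.40, or -0.020 with isopropanol replicate 1 left out). The glucose-repressed kinase genes HXK1 and GLK1 rose 2.53-fold (log2 1.34, SE 0.10) and 2.09-fold (1.06, SE 0.076). Both rose under all 6 scalings, by 1.13 and 1.07 with normexp.

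The genes of galactose use and its regulation, listed as context for GAL2, were mostly dim here too. Of 7, GAL10 was not tested and the other 6 passed as higher, where 48.1% of all genes did. GAL4 entered the test only through the isopropanol group, and the 5 well above background on all arrays had a median of 0.71. GAL4, for the activator of GAL genes, had a fitted rise of 4.07-fold (log2 2.03, SE 0.095) and lay near background in the control group, where 3 of 4 arrays measured it. GAL3, for the galactose sensor, rose 2.17-fold, GAL7, for a transferase of galactose breakdown, 2.06-fold, and GAL1, for galactokinase, 1.64-fold (limma adjusted p from 1.23e-08 to 8.17e-05). With normexp the changes were 0.51 for GAL4, 0.24 for GAL3, 0.16 for GAL7 and 0.050 for GAL1, which no longer passed, as it also did not after quantile normalization (0.17), where 3 of the list were higher and 1 lower.

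**Figure D5:**
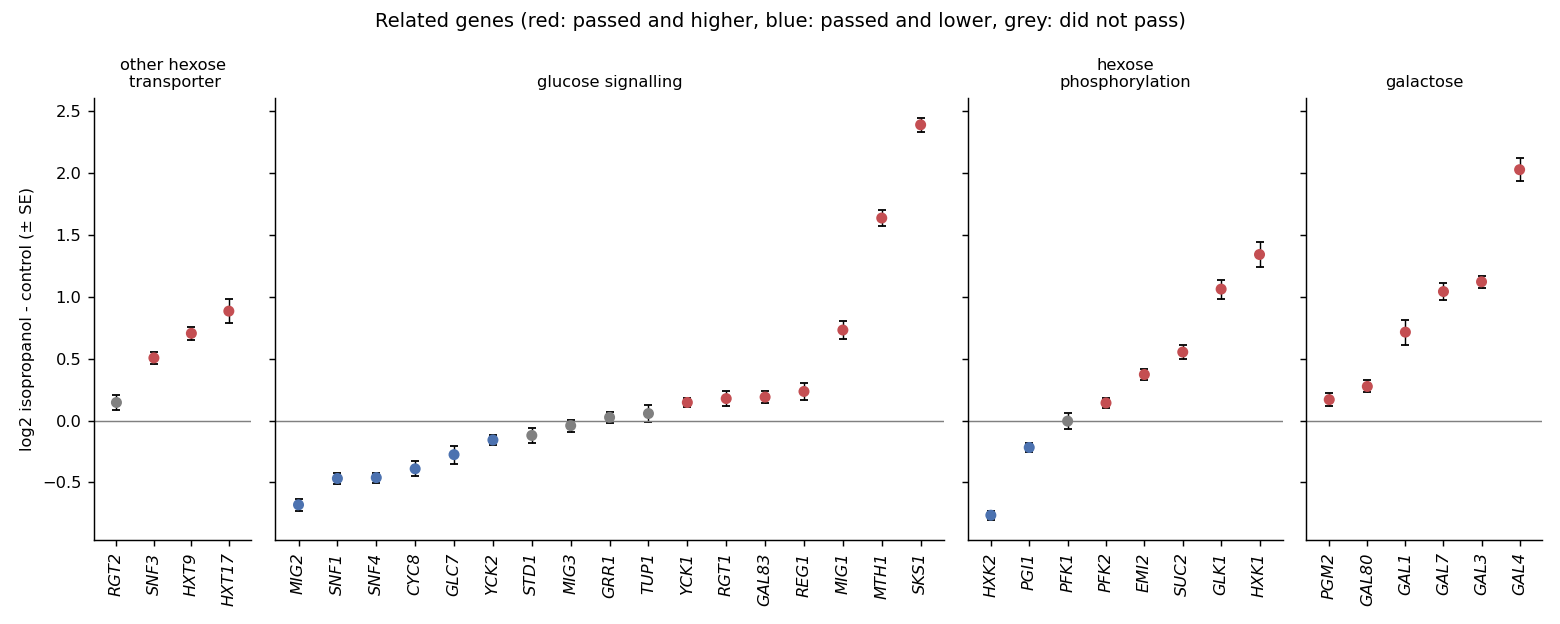
Fitted log2 change, isopropanol minus control, with SE (vertical axis) for the tested genes of the 4 related lists. Red genes passed as higher, blue as lower and grey did not pass; SKS1 (2.39), GAL4 (2.03) and MTH1 (1.63) are the highest, and HXK2 (-0.76) and MIG2 (-0.68) the lowest.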

How the data were processed

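Total RNA of 4 control and 4 isopropanol samples, grouped by their titles, was measured on 1-colour Agilent arrays. The authors deposited scanner output of Agilent Feature Extraction 9.5.3.1, per the file headers (version 9, per the submitters' processing notes). Its processed signal is a spot intensity from which that software has taken background and spatial trend, per the file headers, and arrays are not scaled to each other. The median spot and background intensity, used for normexp alone, are uncorrected per the file headers. Flags deposited by the authors have other units (0 or 1). The deposited series matrix holds log2 values, whose median difference per array was at most 0.0187 from log2 signal relative to the 75th percentile (column medians -1.52 to -1.32, rank correlation 0.997 to 1.00 with the scanner values). Its direction was the same and its genes were not centred. Further steps are not given in the sources used here.

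Log2 processed signal minus the 75th percentile of each array's yeast spots was averaged over the 2 spots of a probe, without non-uniform or outlier spots (0 to 21 per array). Where a gene had several probes (28 genes), the brightest was used. Symbols came from the RefSeq table (R64), which matched 5765 of 6256 probes. No coordinates are printed, since the array annotation is of an older build (sacCer1). Differences were tested with limma 3.58.1 (lmFit, eBayes, R 4.3.3) over 5816 genes, and the fit was tested on simulated data. A probe counted as well above background on an array where all its used spots were. Array number limits precision. The members and lists were chosen with earlier results of these data known. All members, list genes that passed at 1.5-fold or more, and the 3 nearest genes of members that changed 2-fold and were measured on all arrays are named. SNF3, RGT2, the flanking genes and genes named for not being tested or not passing were added after their values were seen. Deviations of arrays with the same replicate number correlated at -0.16 to 0.04. Arrays with different numbers were not compared in this way, so whether the numbers pair the arrays is not settled. Alternatives were other scalings, normexp (offset 50), the series matrix, other filters, probe means, a replicate block and leaving out arrays.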

Additional observations from a re-analysis of the deposited data

Results flagged for a closer look

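In HXT2, isopropanol replicate 4 stood apart at -0.70 against -0.45 to -0.40 on the other isopropanol arrays (log2 relative to the 75th percentile), a gap large for the range of 4 arrays, but far from the control values. The same array stood apart in the related genes STD1 (-0.54), REG1 (0.092) and GAL3 (-4.00). Isopropanol replicate 3 stood apart in GAL80 (-1.39) and GAL10 (-8.91), the latter not well above background. Control replicate 1 stood apart in GAL1 (-4.90) and control replicate 3, scanned apart from its slide, in PGI1 (4.74). In all, 8 of 102 groups of 4 arrays held such an array, and chance alone gives about 1 in 20. The part of these arrays in the results was not tested beyond leaving each out.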

How the results depend on the processing

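Of 411 values recomputed under the alternatives, 342 kept their direction and their side of the threshold (counts: within 1.5 times, GAL2 where not tested: within the control SD). Many of these could not turn in direction. Each member has 1 probe, so probe means leave its change as it was, as do the other filters and the replicate block. The tally is therefore no measure of robustness. Among the other values, the within-array differences with an array left out could not pass, for the limit on p given below. The cause of the rest was not tested. Turned in direction were HXT1 on the spike-in scale (0.29), HXT3 after quantile normalization (0.38), with normexp (0.41) and on the spike-in scale (1.07, or 0.69 without isopropanol replicate 1), HXT4 after median centring (-0.027) and with normexp (-0.027), and HXT4 minus HXT3 after quantile normalization (-0.38) and with normexp (-0.43). On the spike-in scale the members called lower came to 1. Higher and lower calls among glucose signalling genes came to 12 and 0 there, to 13 and 0 without isopropanol replicate 1, and median centring left 3 higher. Hexose phosphorylation genes called lower were 0 on both spike-in settings and 1 after quantile normalization and with normexp. In the galactose list 3 were higher and 1 lower after quantile normalization. In the other transporter list 1 was lower after quantile normalization and with normexp, and 6 were higher without the filter on dim probes. With probes well above background on all arrays, which removes HXT10 and HXT14, 2 members were higher. Leaving out each array in turn gave 3 to 4 members higher and 4 to 4 lower, 3 to 5 other transporter genes higher, and changes of -2.70 to -2.57 for HXT2 minus HXT1, -3.48 to -3.34 for HXT2 minus HXT3 and 0.15 to 0.26 for HXT4 minus HXT3, where 3 against 4 arrays cannot go below an exact permutation p of 0.0571. With the replicate block 4 members were higher and 4 lower, as without it, and the block changed no call of a member. Without control replicate 3 and isopropanol replicate 1 together, an alternative chosen after seeing the data, 3 were higher and 4 lower, HXT4 being lost. Signal over background limits HXT10, HXT14 and GAL2.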
